A study of Mus musculus with 3 samples.

Results

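The axon guidance genes described here are the semaphorins of classes 3 to 7, the plexins, the neuropilins, the Slits and Robos, the netrins and netrin-Gs with Dcc and the Unc5 receptors, and the ephrins with their Eph receptors. They were taken by gene symbol, and 73 of the 31053 genes in the files carried such a symbol. Of these, 61 had at least 30 UMIs (unique molecular identifiers, 1 for each mRNA molecule that was captured) over the kept cells of the 3 libraries, out of 13806 genes in all that passed this limit. They comprise 32 ligands, 28 receptors, and 1 antisense RNA, Plxna4os2, whose symbol begins with that of Plxna4. Plxna4os2 stood exactly at the limit with 30 UMIs, followed by Unc5b with 44, and the nearest genes below it were Plxna4os1 with 27 UMIs and Efna1 with 23. The other genes below the limit were Epha1, Epha2, Ephb4, Robo3, Robo4, Ntn5, Ntng2, Plxnb3, Sema3g, and Plxna4os3, each with at most 23 UMIs.

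Growing axons and migrating neurons read guidance cues through receptors on their surface, and the same receptor can attract or repel depending on its partners. Semaphorins act through plexins, with neuropilins as the binding subunits for most class 3 semaphorins; Slits act through Robos, netrin-1 through Dcc and the Unc5 receptors, and ephrins through Eph receptors, where both partners can signal. These families steer the tangential migration of cortical GABAergic neurons from the ganglionic eminences and, later, the choice of layers, targets, and synaptic partners.

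The study profiled single SST+ neurons of the developing mouse neocortex (NCx). GFP+ and DAPI-negative cells were sorted from SstCre/+;RCEfl/+ mice at embryonic day 16.5 (E16.5, 6 animals pooled), postnatal day 1 (P1, 3 animals pooled), and P5 (3 animals pooled), and each stage gave 1 library. Cells with more than 700 genes and under 10% mitochondrial UMIs were kept, 3952, 2501, and 2980 of them, and kept cells of different libraries shared 1 or 2 barcodes per pair of libraries. Cell suspensions of P1 and P5 were also cleared of myelin, and those of P5 received trypsin in addition. All animals carried the same alleles, so that no group differs by genotype: Sst-Cre switches on the GFP of the RCE reporter, and any cell that expressed Sst at some time before the sort, however briefly, can be in a library. Since each library is 1 pool of animals, cells are not replicates, values at different stages compare these libraries, and no test was made.

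Within each library, cells with at least 1 UMI of Nos1 (Nos1 cells) were compared with cells that had a UMI of Lhx6 and no UMI of Nos1 (Lhx6 cells). Nos1, which encodes neuronal nitric oxide synthase, marks long-range projecting (LRP) neurons, and Lhx6 marks neurons born in the medial ganglionic eminence, SST+ interneurons among them. There were 67 Nos1 cells and 3269 Lhx6 cells at E16.5, 434 and 1606 at P1, and 547 and 1874 at P5. The UMIs of a group were summed and scaled to 1000000 UMIs per group (CPM), and its 95% interval is the exact Poisson interval of the sum. Ratios between groups are called higher or lower where they are at least 2-fold on the scale of CPM + 10, while the folds printed are of CPM itself with an exact binomial interval. All intervals cover counting error only. A higher CPM of a summed group can mean more cells with the mRNA or more mRNA per cell, and the sum does not tell these apart.

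The labels of both groups were checked against marker genes. The summed level of 6 LRP markers other than Nos1, which defines the groups (Chodl, Npy, Sst, Tacr1, Crhbp, and Pcp4), was 18110, 31715, and 42467 CPM in Nos1 cells at E16.5, P1, and P5, against 4620, 2891, and 2672 CPM in Lhx6 cells. Nos1 cells of the 2 earlier libraries also held mRNA of excitatory neurons. The summed level of 8 excitatory markers was 741, 183, and 7.13 CPM in Nos1 cells and 9.18, 11.9, and 5.40 CPM in Lhx6 cells. At E16.5, 15 of the 67 Nos1 cells (22.4%) had a UMI of Neurod2, Neurod6, Slc17a6, or Slc17a7, against 4.61% at P1 and 0.548% at P5. Conversely, among excitatory-like cells without Gad1, Gad2, or Lhx6, Nos1 was detected in 11 of the 34 cells of the E16.5 library, 9 of the 31 of P1, and 2 of the 23 of P5, so that 1 UMI of Nos1 does not by itself mark an LRP neuron. Nos1 cells with exactly 1 such UMI made up 56.7%, 29.0%, and 14.8% of the group in the 3 libraries. Levels are therefore also given by the number of Nos1 UMIs and without the cells with excitatory UMIs. At E16.5, more UMIs of Nos1 did not leave out the cells with excitatory UMIs. Among the Nos1 cells of that library, Islr2 was found only in cells with excitatory UMIs. The 8 cells with 5 or more UMIs of Nos1 held 29 UMIs of Islr2.

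The summed level of the 61 genes was similar in both groups, between 3334 and 3792 CPM in Lhx6 cells and between 3415 and 3964 CPM in Nos1 cells. Each UMI stands for 1 captured molecule, so these levels were not divided by transcript length. Epha5, an ephrin-A receptor, had the highest level in every library and both groups, with 1221, 596, and 572 CPM at E16.5, P1, and P5 in Lhx6 cells and 862, 555, and 826 CPM in Nos1 cells. The median member was at 17.0, 23.6, and 25.5 CPM in Lhx6 cells and at 21.9, 34.0, and 29.0 CPM in Nos1 cells. Under 10 CPM were 22, 14, and 14 members in Lhx6 cells and 16, 12, and 17 in Nos1 cells. In Lhx6 cells, 3 UMIs were 0.141, 0.375, and 0.324 CPM, and in Nos1 cells 5.05, 1.52, and 1.53 CPM.

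A limited set of receptors and ligands set Nos1 cells apart. Of the 61 genes, 10 were higher in Nos1 cells than in Lhx6 cells at E16.5 (16.4%, against 1.72% of all genes), 7 at P1 (11.5%, against 1.25%), and 7 at P5 (11.5%, against 1.41%). Lower in Nos1 cells were 2 genes at E16.5 (3.28%, against 0.688% of all genes), 1 at P1 (1.64%, against 0.464%), and 4 at P5 (6.56%, against 1.61%). Receptors were 28 of the 61 members, and they were 7 of the 10 higher genes in the E16.5 library, 4 of the 7 in P1, and 6 of the 7 in P5. Among the Nos1 cells at E16.5, Nrp1, Plxnd1, and Ephb1 had UMIs only in cells with excitatory UMIs. Without those cells, Plxna4 was under 2-fold at E16.5. The median of all 61 genes was close to that of all genes, with a log2 ratio of 0.08, -0.02, and -0.09 against -0.03, -0.02, and -0.04. With the mean of the CPM of single cells in place of the CPM of the sum, the P1 split was 7 higher and 3 lower.

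**Figure D1:**
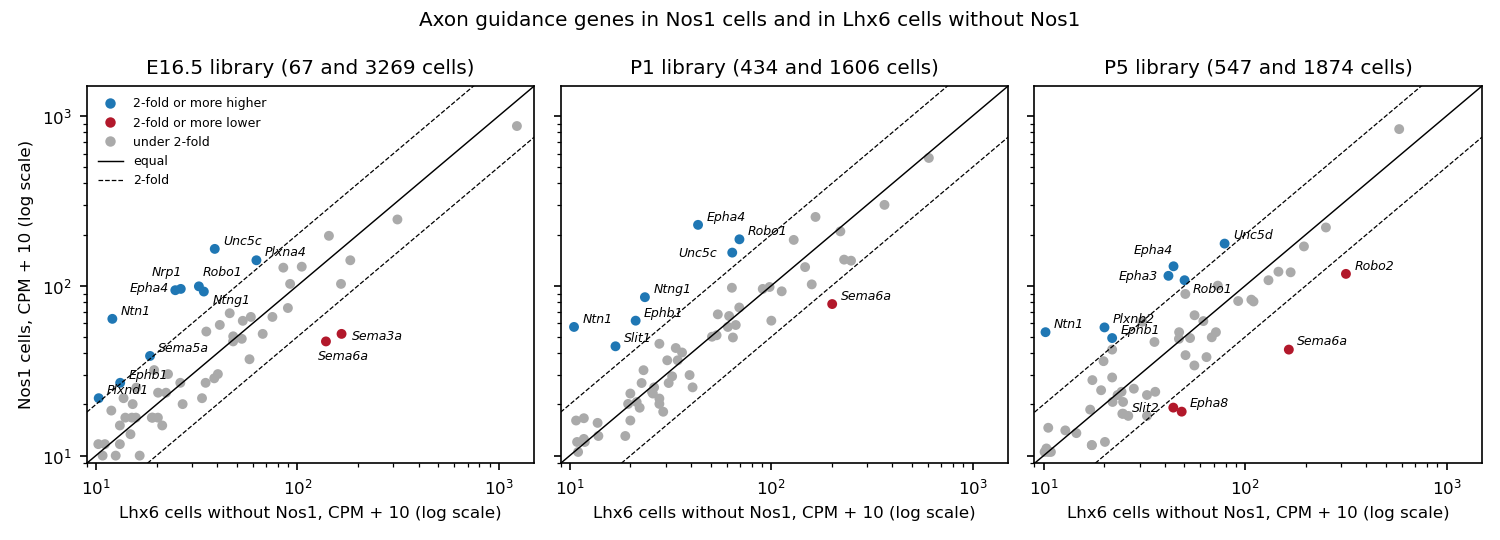
Level of each of the 61 axon guidance genes in Nos1 cells (vertical) against Lhx6 cells without Nos1 (horizontal), as CPM + 10 on log axes, 1 panel per library. Each point is a gene, colored where it is at least 2-fold higher or lower. Most genes lie between the 2-fold lines, Epha4, Robo1, Ephb1, and Ntn1 lie above them in all 3 libraries, and Sema6a lies below them in all 3. The Ephb1 point at E16.5 rests on cells with excitatory UMIs.

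Epha4, Ephb1, Ntn1, and Robo1 were higher in Nos1 cells in both postnatal libraries, which is 6.56% of the 61 genes against 0.797% of all genes. Sema6a was the only member lower in both (1.64%, against 0.326% of all genes). All 5 were past 2-fold in the same direction at E16.5 as well, but Ephb1 only through the cells with excitatory UMIs. Without those cells, its log2 ratio at E16.5 was -0.35. Epha4, Robo1, and Sema6a reached at least 50 CPM in the higher group in both postnatal libraries while Ephb1 and Ntn1 were under 50 CPM in at least 1 of them. Epha4, Ntng1, Unc5c, Robo1, and Unc5d are also on the study's list of LRP genes, and Sema6a is on its list for Martinotti cells (MCs). Those lists were chosen on these same cells, so that the directions of these genes are not independent evidence.

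Epha4 encodes an Eph receptor that binds both ephrin-A and ephrin-B ligands. It lies on chromosome 1 of GRCm38 (77367185 to 77515088, minus strand, ENSMUSG00000026235). The 300 bases around its start in RefSeq (chr1:77515039-77515338 of GRCm38.p6, minus strand) are shown because Epha4 is the Eph receptor with the highest level in Nos1 cells among those higher there in every library, and the capitals mark a GC box (GGGCGG).
Epha4: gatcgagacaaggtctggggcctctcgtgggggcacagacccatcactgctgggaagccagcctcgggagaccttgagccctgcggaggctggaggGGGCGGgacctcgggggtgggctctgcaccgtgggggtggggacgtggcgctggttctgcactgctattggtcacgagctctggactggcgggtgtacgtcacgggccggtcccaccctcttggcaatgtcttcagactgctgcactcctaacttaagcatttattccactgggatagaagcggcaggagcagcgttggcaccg
In Lhx6 cells of the E16.5, P1, and P5 libraries, Epha4 was at 14.8 CPM (95% interval 13.2 to 16.5), 33.3 CPM (29.5 to 37.6), and 34.1 CPM (30.5 to 38.1). In Nos1 cells, it was at 84.2 CPM (62.5 to 111), 218 CPM (198 to 240), and 120 CPM (105 to 137). The intervals of the groups did not overlap in any library, and the folds were 5.69 (4.13 to 7.69), 6.55 (5.61 to 7.66), and 3.52 (2.96 to 4.18). Excitatory-like cells had still higher levels of Epha4, with 197, 194, and 296 CPM. Without the cells with excitatory UMIs, Epha4 in Nos1 cells was at 54.5 CPM (34.2 to 82.5) at E16.5, 227 CPM (205 to 250) at P1, and 119 CPM (104 to 136) at P5. At P1, Epha4 was at 96.5 CPM in cells with 1 UMI of Nos1, 248 CPM in those with 2 to 4, and 285 CPM in those with 5 or more. The order was not the same in the other libraries, with 102, 87.3, and 27.2 CPM at E16.5, the last from 3 UMIs in 8 cells, and 54.3, 157, and 130 CPM at P5. A UMI of Epha4 was found in 45.4% of the Nos1 cells and 11.6% of the Lhx6 cells at P1, where the median depths were 3704.5 and 3811 UMIs. With each cell thinned to 2000 UMIs, the shares were 31.7% (26.9 to 36.9) and 6.24% (4.99 to 7.68), with 78 Nos1 cells and 291 Lhx6 cells left out as too shallow.

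Ephb1, a receptor for ephrin-B ligands on chromosome 9 (101922128 to 102354693, minus strand), had a similar order at lower levels. Its promoter (chr9:102354644-102354943 of GRCm38.p6, minus strand) is shown for comparison with that of Epha4; the capitals mark a SOX motif (ACAATG).
Ephb1: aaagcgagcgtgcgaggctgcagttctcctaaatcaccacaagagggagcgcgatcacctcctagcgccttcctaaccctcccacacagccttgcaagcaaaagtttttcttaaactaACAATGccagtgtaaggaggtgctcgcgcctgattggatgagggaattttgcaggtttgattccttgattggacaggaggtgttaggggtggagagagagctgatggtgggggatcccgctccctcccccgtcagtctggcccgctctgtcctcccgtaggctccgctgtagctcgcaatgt
Lhx6 cells had 3.20, 11.2, and 11.9 CPM of Ephb1 at E16.5, P1, and P5, and Nos1 cells had 16.8, 52.3, and 39.2 CPM. The folds were 5.25 (2.41 to 10.3), 4.65 (3.47 to 6.25), and 3.30 (2.43 to 4.46). The E16.5 value rests on 10 UMIs, all from the 15 cells with excitatory UMIs, and the other 52 Nos1 cells had 0 UMIs of Ephb1, for which the 95% interval reaches 9.14 CPM. The postnatal excess was also present without such cells, with 49.3 CPM (39.6 to 60.8) at P1 and 39.4 CPM (31.1 to 49.2) at P5.

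Of the other 9 Eph receptors, Epha3 was higher and Epha8 lower in Nos1 cells at P5. Epha3, an ephrin-A receptor, was at 119, 87.3, and 104 CPM in Nos1 cells and at 95.2, 53.8, and 31.6 CPM in Lhx6 cells, with a fold of 3.30 (2.75 to 3.96) at P5. Epha8, outside the naming rule, was at 8.15 CPM in Nos1 cells against 38.4 CPM in Lhx6 cells at P5, a level 4.72-fold (2.87 to 8.34) lower. Epha5 was 826 CPM against 572 CPM at P5 and did not reach 2-fold in any library. Ephb2, a receptor for ephrin-B ligands, was nearly level, with 55.5, 88.3, and 52.0 CPM in Nos1 cells and 65.2, 88.1, and 52.1 CPM in Lhx6 cells. On the scale of CPM + 10, none of the 7 ephrins was past 2-fold between the groups in any library. At most 1.72% of all genes were called in either direction, so this does not set the ephrins apart. On CPM itself, Efnb1 was 2.64-fold (1.84 to 3.76) higher in Nos1 cells at P5, with 26.0 CPM against 9.83 CPM. Efna4 was 4.36-fold (1.34 to 11.0) higher at E16.5, from 5 UMIs in Nos1 cells. The most abundant ephrin, Efnb3, was at 92.6, 199, and 160 CPM in Nos1 cells and at 155, 210, and 186 CPM in Lhx6 cells.

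The Slit receptors Robo1 and Robo2 had opposite orders in the postnatal libraries. Robo1 lies on chromosome 16 (72308306 to 73046095, plus strand, ENSMUSG00000022883), and RefSeq places a start within that span. Its promoter (chr16:72662899-72663198 of GRCm38.p6, plus strand) is shown because Robo1 is higher in Nos1 cells together with Epha4 and Ephb1; none of the 5 motifs searched was found in it.
Robo1: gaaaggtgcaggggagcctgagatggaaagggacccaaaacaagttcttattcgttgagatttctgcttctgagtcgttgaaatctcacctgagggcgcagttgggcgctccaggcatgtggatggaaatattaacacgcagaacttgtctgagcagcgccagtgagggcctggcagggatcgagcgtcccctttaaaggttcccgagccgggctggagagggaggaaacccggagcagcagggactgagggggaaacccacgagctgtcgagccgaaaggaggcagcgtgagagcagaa
Robo1 was at 22.5 CPM (20.5 to 24.6), 59.6 CPM (54.3 to 65.1), and 40.1 CPM (36.1 to 44.4) in Lhx6 cells and at 89.2 CPM (66.8 to 117), 178 CPM (160 to 197), and 97.8 CPM (84.5 to 113) in Nos1 cells. The folds were 3.97 (2.93 to 5.28), 2.98 (2.59 to 3.43), and 2.44 (2.04 to 2.91). Both groups had their highest level of Robo1 in the P1 library. Robo2 was at 134, 239, and 307 CPM in Lhx6 cells and at 187 CPM (154 to 225), 130 CPM (115 to 147), and 107 CPM (93.5 to 123) in Nos1 cells. At P5, it was 2.85-fold (2.48 to 3.30) lower in Nos1 cells, while at E16.5 the groups were within 2-fold. Without the cells with excitatory UMIs, Robo2 in Nos1 cells at E16.5 was at 156 CPM (120 to 200).

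The balance of both receptors differed accordingly. Robo1 made up 14.4% (95% Clopper-Pearson interval 13.2 to 15.6) of the UMIs of both Robos in Lhx6 cells at E16.5, 19.9% (18.4 to 21.6) at P1, and 11.6% (10.5 to 12.7) at P5. In Nos1 cells the shares were 32.3% (25.2 to 40.1), 57.7% (53.6 to 61.6), and 47.6% (42.7 to 52.6). In excitatory-like cells they were 19.0%, 30.6%, and 19.4%, closer to those of Lhx6 cells than of Nos1 cells. In the postnatal libraries, the level of Robo2 was lower in Nos1 cells with more Nos1 UMIs. At P1, it was 249 CPM (212 to 291) in cells with 1 UMI of Nos1, 166 CPM (121 to 221) in those with 2 to 4, and 48.6 CPM (36.2 to 63.9) in those with 5 or more. At P5, the levels in the same order were 259, 120, and 73.3 CPM. At E16.5, they were 198, 237, and 81.6 CPM, the last from 9 UMIs.

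Of their ligands, Slit1 was higher in Nos1 cells at P1 and Slit2 lower at P5. Slit1 was at 6.73, 34.0, and 32.1 CPM in Nos1 cells and at 5.79, 6.87, and 11.9 CPM in Lhx6 cells, with a fold of 4.95 (3.42 to 7.21) at P1. Slit2 was at 0, 8.12, and 9.17 CPM in Nos1 cells and at 6.50, 19.1, and 34.0 CPM in Lhx6 cells, and was 3.71-fold (2.31 to 6.34) lower at P5. Slit3 was near the limit of detection in the postnatal Nos1 cells, with 3.05 and 2.04 CPM. At P5, Nos1 cells thus had more Robo1 and Slit1, and Lhx6 cells more Robo2 and Slit2, though Slit1 did not reach 2-fold in that library on the scale of CPM + 10.

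Ntn1, which encodes the secreted ligand netrin-1, had the largest ratio of the 61 genes in each library on the scale of CPM + 10. It lies on chromosome 11 (68209364 to 68400823, minus strand, ENSMUSG00000020902). Lhx6 cells of the 3 libraries, in the order of age, had 44, 4, and 2 UMIs of Ntn1, or 2.07, 0.499, and 0.216 CPM. Nos1 cells had 32, 93, and 85 UMIs, or 53.9 CPM (36.8 to 76.0), 47.2 CPM (38.1 to 57.8), and 43.3 CPM (34.6 to 53.5). The 15 cells with excitatory UMIs at E16.5 had 0 UMIs of Ntn1, and without such cells the levels were 79.3 CPM (54.2 to 112), 52.2 CPM (42.1 to 63.9), and 43.5 CPM (34.7 to 53.8). The folds over all Nos1 cells were 26.0 (16 to 41.9), 94.6 (35.7 to 354), and 200.4 (53.8 to 1682), the last from 2 UMIs in Lhx6 cells. At P1, 16.8% of the Nos1 cells and 0.249% of the Lhx6 cells had a UMI of Ntn1, and with each cell thinned to 2000 UMIs the shares were 8.43% (5.76 to 11.8) and 0.152% (0.0184 to 0.548). No UMI of Ntn1 was found in excitatory-like cells, where 3 UMIs would be 7.89, 17.7, and 31.7 CPM. At P5, Ntn1 was at 0 UMIs in cells with 1 UMI of Nos1, at 36.6 CPM in those with 2 to 4, and at 53.5 CPM (42.3 to 66.7) in those with 5 or more.

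Ntng1 encodes netrin-G1, a membrane-anchored relative of the netrins that binds the synaptic protein Lrrc4c. It was at 82.5, 75.7, and 51.4 CPM in Nos1 cells and at 24.4, 13.6, and 20.8 CPM in Lhx6 cells. Its folds were 3.39 (2.47 to 4.54), 5.56 (4.31 to 7.18), and 2.47 (1.92 to 3.16). The last of these did not reach 2-fold on the scale of CPM + 10. The secreted Ntn4 was at most 22.6 CPM in either group.

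Among the netrin receptors, Unc5c and Unc5d were higher in Nos1 cells in some libraries and Dcc in none. Unc5c, a receptor for repulsive responses to netrin-1, was at 155 CPM (125 to 190), 147 CPM (130 to 165), and 79.5 CPM (67.5 to 93.0) in Nos1 cells and at 28.9, 54.1, and 40.5 CPM in Lhx6 cells. It was 5.35-fold (4.25 to 6.68) higher at E16.5 and 2.71-fold (2.33 to 3.16) higher at P1, and its value at P5 stayed under 2-fold. Under the stricter limits on genes and mitochondrial UMIs per cell, the P1 log2 ratio of Unc5c was 0.71, below the 2-fold limit. Unc5d was at 52.2, 176, and 167 CPM in Nos1 cells and at 43.6, 119, and 69.1 CPM in Lhx6 cells, and was 2.42-fold (2.11 to 2.77) higher at P5. Dcc, the netrin receptor for attraction, was at 20.2, 6.09, and 7.64 CPM in Nos1 cells and at 12.8, 9.99, and 14.8 CPM in Lhx6 cells.

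**Figure D2:**
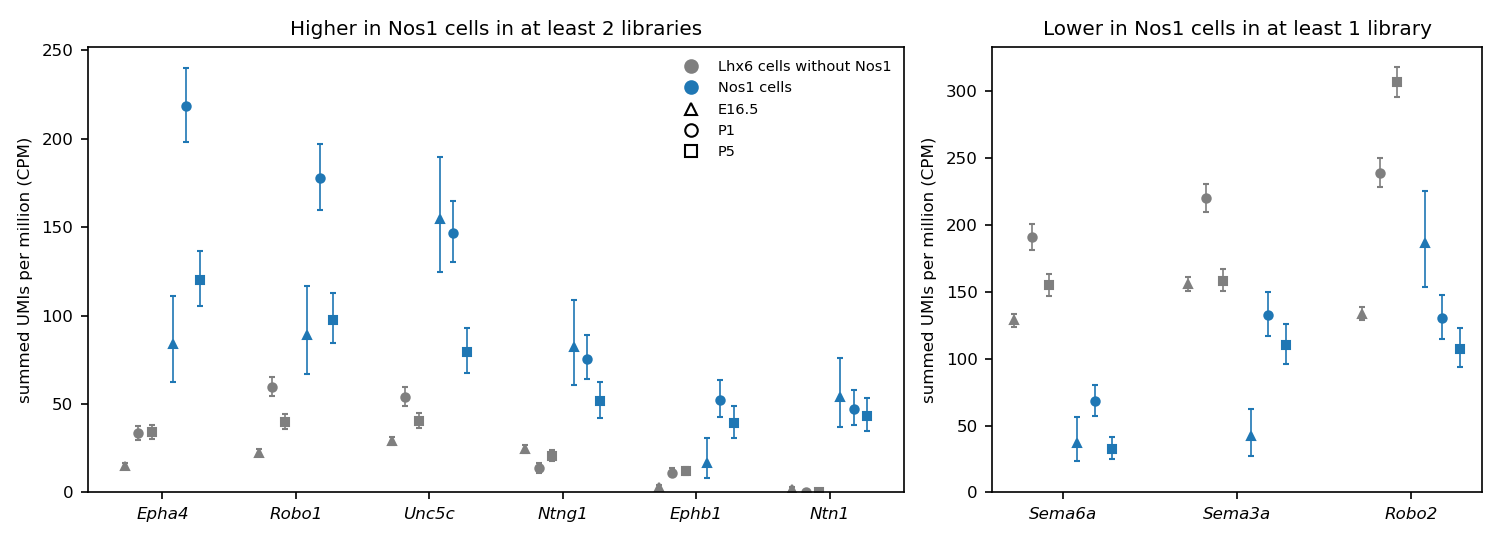
Levels of 9 axon guidance genes in CPM (linear axes from 0) in Lhx6 cells without Nos1 (gray) and Nos1 cells (blue) of the E16.5 (triangles), P1 (circles), and P5 (squares) libraries; bars are exact Poisson 95% intervals. Epha4 and Robo1 are higher in Nos1 cells in each library, Ntn1 is near 0 in Lhx6 cells, and Robo2 is within 2-fold between the groups at E16.5 and lower in Nos1 cells at P5.

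Semaphorins were the largest family, with 19 members. Of these, 1 was higher and 2 were lower in Nos1 cells at E16.5, and 1 was lower and none higher at P1 and at P5. Of all genes, 1.72% were higher and 0.688% lower at E16.5, 1.25% and 0.464% at P1, and 1.41% and 1.61% at P5. Sema6a, a transmembrane semaphorin that binds Plxna2 and Plxna4, lies on chromosome 18 (47235598 to 47368870, minus strand). It was at 129 CPM (124 to 134), 191 CPM (181 to 201), and 155 CPM (147 to 163) in Lhx6 cells and at 37.0 CPM (23.2 to 56.1), 68.0 CPM (57.0 to 80.6), and 32.1 CPM (24.7 to 41.1) in Nos1 cells. It was thus lower in Nos1 cells 3.48-fold (2.29 to 5.56), 2.80-fold (2.35 to 3.37), and 4.83-fold (3.75 to 6.31). At P5, its level was 124 CPM (88.5 to 170) in cells with 1 UMI of Nos1, 52.4 CPM (25.1 to 96.3) in those with 2 to 4, and 9.60 CPM (5.25 to 16.1) in those with 5 or more. At P1, these levels were 121, 68.4, and 35.3 CPM. At E16.5, they had another order, with 24.7, 62.4, and 36.3 CPM from 8, 10, and 4 UMIs. At E16.5, Sema6a did not reach 2-fold with a gate of 2 UMIs of Nos1 and the cells with excitatory UMIs left out (log2 ratio -0.68), an alternative chosen after seeing the data.

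Sema3a, a secreted repellent that binds Nrp1, was 3.70-fold (2.50 to 5.73) lower in Nos1 cells at E16.5. It was at 42.1, 133, and 110 CPM in Nos1 cells and at 156, 220, and 158 CPM in Lhx6 cells, so that the groups were nearer to each other in the postnatal libraries. Sema6d, a transmembrane ligand of Plxna1, was at 118, 119, and 97.8 CPM in Nos1 cells and at 75.2, 137, and 121 CPM in Lhx6 cells. Of the remaining semaphorins, 1 passed 2-fold, Sema5a at E16.5, with 28.6 CPM in Nos1 cells against 8.57 CPM in Lhx6 cells (3.34-fold, 1.90 to 5.49). Sema5a was named after its value was seen.

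The semaphorin receptors were mostly shared. Plxna2, the receptor of Sema6a, was the most abundant plexin, with 236, 289, and 210 CPM in Nos1 cells and 304, 355, and 242 CPM in Lhx6 cells. Plxna4, a receptor for class 3 and class 6 semaphorins, was 2.49-fold (1.96 to 3.14) higher in Nos1 cells at E16.5, with 131 CPM against 52.7 CPM, and under 2-fold in the postnatal libraries. Its E16.5 log2 ratio was 1.17, and it was 0.91 without the cells with excitatory UMIs and 0.36 with a gate of 2 UMIs of Nos1. Plxnb2, a receptor of class 4 semaphorins that is named after its value was seen, was at 46.9 CPM in Nos1 cells against 10.0 CPM in Lhx6 cells at P5 (4.67-fold, 3.46 to 6.29).

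The neuropilin Nrp1 and the plexin Plxnd1 were higher in Nos1 cells at E16.5 through the cells with excitatory UMIs. Nrp1, the binding subunit for Sema3a, had 51 UMIs in the 67 Nos1 cells at E16.5 (85.8 CPM, 63.9 to 113), all of them in the 15 cells with excitatory UMIs, and 0 in the other 52. Its level in excitatory-like cells was 174, 136, and 52.8 CPM. At P1 and P5, Nrp1 was at 10.2 and 1.53 CPM in Nos1 cells and at 17.9 and 7.34 CPM in Lhx6 cells. Plxnd1, the receptor of Sema3e, likewise had all of its 7 UMIs at E16.5 in those 15 cells. Nrp2, which binds Sema3f, was at 37.0, 15.2, and 12.7 CPM in Nos1 cells and at 38.0, 30.7, and 13.3 CPM in Lhx6 cells.

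**Figure D3:**
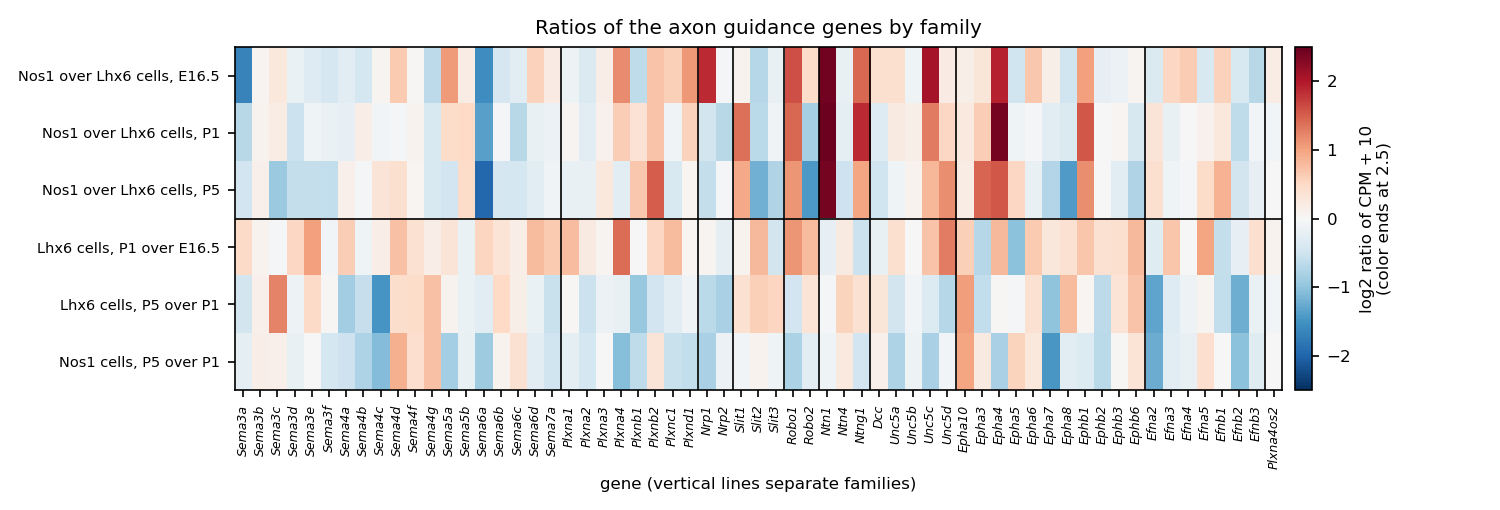
Log2 ratios of CPM + 10 (color, ending at 2.5 in both directions) of the 61 axon guidance genes in columns, by family, for 6 comparisons in rows. The upper 3 rows compare Nos1 with Lhx6 cells and the lower 3 compare libraries; red is higher in the first group named. Ntn1, Epha4, and Robo1 are red in the upper 3 rows, Sema6a is blue in them, and most ephrins and semaphorins are pale.

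Genes that act with these families were read from 2 lists. Of 18 co-receptors and partners, 5 were higher and 1 lower in Nos1 cells at E16.5, 2 were higher and 1 lower at P1, and 2 were lower at P5. These are 27.8% and 5.56% of the list at E16.5 (1.72% and 0.688% of all genes), 11.1% and 5.56% at P1 (1.25% and 0.464%), and 0% and 11.1% at P5 (1.41% and 1.61%). Flrt3, which interacts with Unc5 receptors and Robo1, was higher at E16.5 (72.4 CPM against 20.8 CPM) and at P1 (79.7 CPM against 21 CPM). Islr2 was higher at the same stages, with 104 CPM against 2.45 CPM and 37.1 CPM against 4.24 CPM, but all of its 62 UMIs at E16.5 and 39 of its 73 at P1 came from cells with excitatory UMIs. The same held for 105 of the 110 UMIs of Cntn2 at E16.5. Chl1, a cell adhesion molecule and partner of semaphorin receptors, was lower in Nos1 cells at E16.5 (367 CPM against 810 CPM) and at P1 (632 CPM against 1303 CPM).

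Of 54 genes for signalling downstream of the receptors, 53 could be tested, and 2 were higher and 1 lower at E16.5, 1 was higher at P1, and 1 was higher and 1 lower at P5. The higher genes are 3.77%, 1.89%, and 1.89% of the list, near the 1.72%, 1.25%, and 1.41% of all genes. The lower genes are 1.89%, 0%, and 1.89% of the list, against 0.688%, 0.464%, and 1.61% of all genes. Sipa1l1, a regulator of Rap GTPases, was the higher gene in all 3 libraries. It was at 65.6, 129, and 112 CPM in Nos1 cells and at 24.0, 36.6, and 40.8 CPM in Lhx6 cells.

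The Nos1 cells were divided by Dach1 and Lypd1, which mark different groups of developing LRP neurons. Nos1 cells with a UMI of Dach1 and none of Lypd1 (Dach1 cells) numbered 98 among the 434 of the P1 library and 27 among the 547 of the P5 library, and cells with the opposite pattern (Lypd1 cells) numbered 55 and 221. At E16.5 there were 22 Dach1 cells and 1 Lypd1 cell, so that this library was not compared. Excitatory markers summed to 4.68 CPM in Dach1 cells and 167 CPM in Lypd1 cells at P1 and were at 0 in both at P5. At P1, 6 members were higher in Dach1 cells (9.84%, against 3.05% of all genes) and 3 were lower (4.92%, against 2.3%). With the mean of the CPM of single cells, this split was 8 and 2. At P5, 6 members were higher (9.84%, against 5.84% of all genes) and 11 lower (18%, against 7.8%). The 27 Dach1 cells at P5 held 98231 UMIs, so that 3 UMIs were 30.5 CPM, and 7 of the 11 lower genes had 0 UMIs there. Of those 7, Ephb1 alone had a level in Lypd1 cells clearly above this floor.

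Among the members higher in Dach1 cells, Epha4 had the largest ratio in both libraries on the scale of CPM + 10. It was at 507 CPM (442 to 580) in Dach1 cells and 80.5 CPM (52.6 to 118) in Lypd1 cells at P1, and at 458 CPM (334 to 613) and 58.9 CPM (43.7 to 77.6) at P5. The folds were 6.30 (4.19 to 9.87) and 7.78 (5.08 to 11.9). Lypd1 cells still had more Epha4 than the Lhx6 cells of the same library, where it was at 33.3 and 34.1 CPM. Nos1 cells with neither marker were in between, with 156 CPM at P1 and 140 CPM at P5. Dach1 cells were 22.6% (18.7 to 26.8) of the Nos1 cells at P1 and 4.94% (3.28 to 7.10) at P5, and the part of this in the lower Epha4 level of all Nos1 cells at P5 was not tested.

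Ntng1, Plxnc1, and Plxna4 had the same order. Ntng1 was at 154 CPM in Dach1 cells against 46.5 CPM in Lypd1 cells at P1 and at 193 CPM against 28.3 CPM at P5, with folds of 3.32 (1.88 to 6.27) and 6.84 (3.54 to 13.0). Plxnc1, the plexin that binds Sema7a, was at 65.5 CPM against 18.6 CPM and at 71.3 CPM against 10.6 CPM, with folds of 3.52 (1.43 to 10.4) and 6.72 (2.13 to 20.3), the latter from 7 and 9 UMIs. Plxna4 was at 430 CPM against 105 CPM and at 193 CPM against 82.4 CPM, with folds of 4.09 (2.82 to 6.08) and 2.35 (1.33 to 3.94). Unc5c and Epha7 were also higher in Dach1 cells at P1, by 2.57-fold (1.63 to 4.19) and 2.89-fold (1.15 to 8.69). Both were under 2-fold with each cell thinned to 2000 UMIs (log2 ratios 0.63 and 0.43).

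Plxna2 and Ephb1 had the opposite order. Plxna2 was at 140 CPM in Dach1 cells against 297 CPM in Lypd1 cells at P1 and at 61.1 CPM against 248 CPM at P5, or 2.12-fold (1.52 to 2.98) and 4.07-fold (1.84 to 11.2) lower. Dach1 cells therefore had more UMIs of Plxna4 than of Plxna2 in both libraries, and Lypd1 cells more of Plxna2. Ephb1 was at 30.4 CPM against 86.7 CPM at P1, or 2.85-fold (1.43 to 6.00) lower. At P5, it was at 0 UMIs in Dach1 cells and 61.2 CPM in Lypd1 cells, which is at least 2.00-fold lower when 3 UMIs are set for the group at 0. The P1 ratios of both genes were under 2-fold with the mean of the CPM of single cells, with log2 ratios of -0.84 and -0.64. The P1 ratio of Plxna2 was also under 2-fold with each cell thinned to 2000 UMIs (-0.82). That of Ephb1 was under 2-fold with the stricter limits on genes and mitochondrial UMIs per cell (-0.965). Both stayed past 2-fold without the cells with excitatory UMIs. The receptors Epha4 and Ephb1, both higher in Nos1 cells than in Lhx6 cells, thus lay on opposite sides of the division by Dach1 and Lypd1.

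Other genes of Nos1 cells did not follow this division. Robo1 was at 236 CPM in Dach1 cells and 186 CPM in Lypd1 cells at P1 and at 163 and 98.9 CPM at P5. Ntn1 was at 72.5 and 52.6 CPM at P1 and at 40.7 and 54.2 CPM at P5. In both kinds of cell these genes were above their level in Lhx6 cells.

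**Figure D4:**
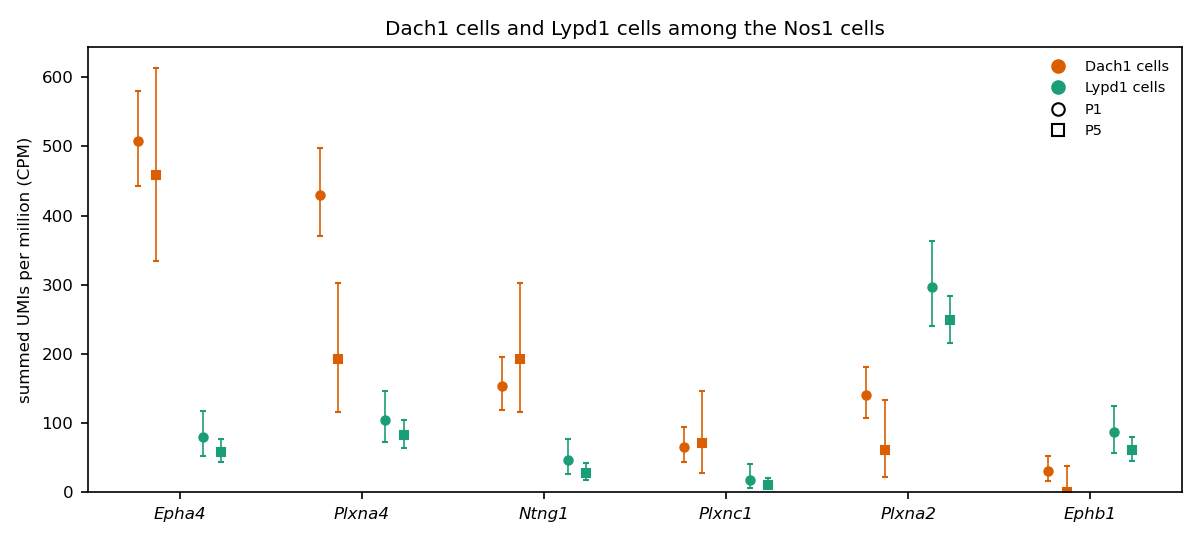
Levels in CPM (linear axis from 0) of 6 axon guidance genes in Dach1 cells (orange) and Lypd1 cells (green) among the Nos1 cells of the P1 (circles) and P5 (squares) libraries; bars are exact Poisson 95% intervals. Epha4, Plxna4, Ntng1, and Plxnc1 are higher in Dach1 cells and Plxna2 and Ephb1 are higher in Lypd1 cells, with wide intervals in the 27 Dach1 cells at P5.

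The libraries of different stages were compared within Lhx6 cells, where stage and library cannot be told apart. Between E16.5 and P1, 4 members were higher at P1 (6.56%, against 3.39% of all genes), namely Plxna4, Unc5d, Robo1, and Sema3e, and 1, Epha5, was lower (1.64%, against 1.22%). With the mean of the CPM of single cells, the split was 4 and 0. The median of all 61 genes had a log2 ratio of 0.33, against 0.08 for all genes. Between P1 and P5, 2 members were higher at P5 (3.28%, against 3.01% of all genes), Epha10 and Sema3c, and 4 were lower (6.56%, against 3.57%), Efnb2, Efna2, Epha7, and Sema4c. The share of members higher at P5 than at P1 was thus near the background.

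Over the whole interval from E16.5 to P5, 11 members were higher at P5 (18%, against 8.71% of all genes) and 7 were lower (11.5%, against 5.97%). Among those with at least 50 CPM in the higher library, Ephb6, Plxna4, Robo2, and Efna5 were higher. Ephb6, a kinase-inactive Eph receptor, was at 12.3, 29.3, and 54.3 CPM at E16.5, P1, and P5, or 4.42-fold (3.80 to 5.15) higher at P5 than at E16.5. Plxna4 was at 52.7, 156, and 136 CPM, with a fold of 2.59 (2.39 to 2.81). Its higher level was already present in the P1 library. Robo2 was at 134, 239, and 307 CPM, with a fold of 2.30 (2.18 to 2.42), and Efna5, an ephrin-A ligand, was at 25.1, 59.4, and 63.2 CPM, with a fold of 2.52 (2.24 to 2.84).

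Epha5, Epha3, Efnb2, and Efna2 were lower at P5 than at E16.5. The receptor Epha5 was at 1221, 596, and 572 CPM, or 2.13-fold (2.07 to 2.20) lower, with nearly all of the difference between the E16.5 and P1 libraries. Epha3 was at 95.2, 53.8, and 31.6 CPM, or 3.01-fold (2.66 to 3.41) lower. The ligands Efnb2 and Efna2 were at 173, 149, and 58.3 CPM and at 57.3, 44.3, and 11.9 CPM, or 2.97-fold (2.71 to 3.26) and 4.82-fold (3.97 to 5.92) lower, and both differed mainly between P1 and P5. Of the 7 ephrins, 3 were lower at P5 and 1, Efna5, was higher.

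**Figure D5:**
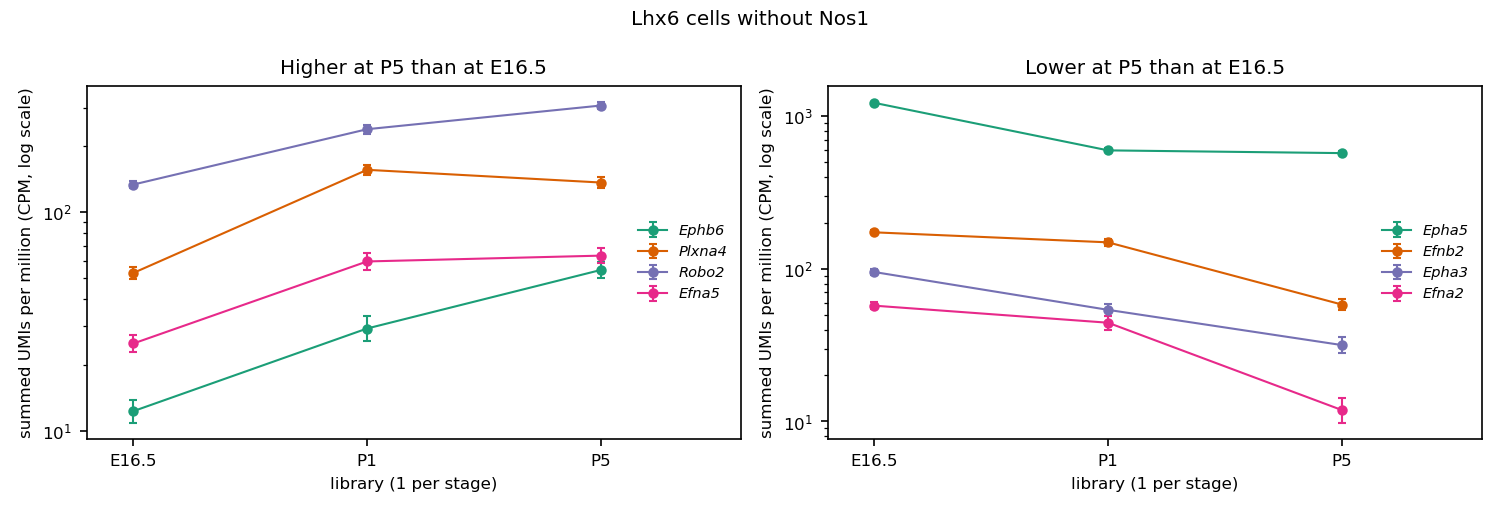
Levels in CPM (log axes) of 8 axon guidance genes in Lhx6 cells without Nos1 of the E16.5, P1, and P5 libraries; bars are exact Poisson 95% intervals. The left panel shows the 4 genes that were higher and the right panel the 4 that were lower at P5 than at E16.5, among genes with at least 50 CPM in the higher library.

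In Nos1 cells, no member was higher at P5 than at P1 (0%, against 2.34% of all genes) and 5 were lower (8.20%, against 4.16%). With mitochondrial and ribosomal genes left out of the total, the split was 1 and 5. Efna2 was at 57.9 CPM at P1 and 18.8 CPM at P5, or 3.07-fold (2.10 to 4.58) lower, and Efnb2 was at 91.9 and 39.7 CPM, or 2.31-fold (1.76 to 3.06) lower. Epha7, an ephrin-A receptor, was at 82.8 and 23.9 CPM, or 3.46-fold (2.49 to 4.89) lower. These 3 genes were also lower in Lhx6 cells at P5, with 2.55-fold (2.31 to 2.83) for Efnb2, 3.73-fold (3.00 to 4.66) for Efna2, and 2.23-fold (1.98 to 2.52) for Epha7. The Efnb2 ratio in Nos1 cells was under 2-fold with a gate of 2 UMIs of Nos1 (log2 ratio -0.76) and under the stricter limits on cells (-0.69). It was also under 2-fold without the cells with excitatory UMIs (-0.96) and with that gate in addition (-0.74). The Epha7 ratio in Nos1 cells was slightly under 2-fold with the gate (-0.98), with thinning to 2000 UMIs (-0.98), and under the combined alternative (-0.997). In Lhx6 cells, the Epha7 ratio was -0.95 under the stricter limits. Sema4c, named after its value was seen, was the other gene lower in both groups, with 41.1 and 14.3 CPM in Nos1 cells and 43.6 and 9.29 CPM in Lhx6 cells.

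Plxna4 was lower at P5 in Nos1 cells, with 244 CPM at P1 and 111 CPM at P5 (2.20-fold, 1.87 to 2.59), while its levels in Lhx6 cells were 156 and 136 CPM. It was at 430 and 193 CPM in Dach1 cells, at 105 and 82.4 CPM in Lypd1 cells, and at 217 and 126 CPM in Nos1 cells with neither marker. The value was lower at P5 in each of the 3 kinds of Nos1 cell. In Lypd1 cells, however, the intervals overlapped, with 72.9 to 147 CPM at P1 and 64.3 to 104 CPM at P5. They did not overlap in Dach1 cells or in Nos1 cells with neither marker. The part that the smaller share of Dach1 cells at P5 had in the level over all Nos1 cells was not tested.

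Of the 61 genes, 22 were under 2-fold in all 9 comparisons, including the comparison of P5 with E16.5. The matching share of all genes is not given, so this count does not set the members apart from genes in general. These are Dcc, Efna3, Efna4, Efnb3, Ephb2, Ephb3, Ntn4, Plxna1, Plxna3, Plxna4os2, Plxnb1, Sema3d, Sema3f, Sema4b, Sema4g, Sema5b, Sema6b, Sema6c, Sema6d, Sema7a, Slit3, and Unc5b. Their log2 ratios lay between -0.96 and 0.89. The highest level in any library of Nos1 or Lhx6 cells had a median of 26.5 CPM over these genes.

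Of the 61 genes, 50 had a promoter in the RefSeq table (250 bases before to 50 after the start). Letters of 5 motifs were searched on both strands. The GC box GGGCGG was found in 74.0% of these 50 promoters and in 35.9% of 27025 promoters of all genes. The SOX motif ACAATG was found in 12% against 12.8%, the homeodomain motif TAATTA in 2.0% against 5.31%, the TATA box TATAAA in 4% against 14.2%, and the octamer ATGCAAAT, the letters read by POU factors, in none against 1.75%. The 27025 promoters were not limited to genes with at least 30 UMIs, as the members were, so these sets are not matched for expression. A match is only a match of letters.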

How the data were processed

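The authors isolated GFP+ cells by sorting, made 1 library per stage with a 10x Genomics Chromium 3′ kit, and deposited a matrix of raw UMI counts per gene and cell for each, made with Cell Ranger (3.1.0 for E16.5 and P5, 3.0.2 for P1, per the file headers) on GRCm38. Totals were 25638779, 15654107, and 13429055 UMIs at E16.5, P1, and P5.

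Cells with more than 700 genes and under 10% mitochondrial UMIs were kept, and no doublet caller was run. Counts were summed per group and library, scaled to 1000000, and compared as log2 ratios of CPM + 10. Members had at least 30 UMIs, and a ratio of at least 2-fold was called. Intervals are exact Poisson or binomial (Clopper-Pearson) at 95%. Floors are 3 UMIs over the group. With 1 library per stage there was no test. Members and lists were chosen with earlier results of these data known.

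Genes were named if past 2-fold with at least 50 CPM between Nos1 and Lhx6 cells in both postnatal libraries or between E16.5 and P5, if among the 3 most abundant of a family in Lhx6 cells, or if past 2-fold in the same direction between Dach1 and Lypd1 cells at P1 and P5. Other members named were chosen after their values were seen. Of the marker lists, the 6 not given in the report (Meis2 type, oligodendrocyte lineage, astrocytes, microglia, vessels, cycling cells) summed to at most 182 CPM in Nos1 and Lhx6 cells. The summed level of 8 markers of the medial ganglionic eminence was 6946, 7961, and 6513 CPM in Nos1 cells and 6078, 4823, and 4546 CPM in Lhx6 cells.

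The alternatives were a gate of 2 UMIs of Nos1, a pseudocount of 1 CPM, a minimum of 100 UMIs per gene, over 1000 genes and under 5% mitochondrial UMIs per cell, a filter on total UMIs, the mean of the CPM of single cells, thinning to 2000 UMIs, totals without mitochondrial and ribosomal genes, and leaving out cells with excitatory UMIs. The ratio calculation was run on simulated counts of Nos1 and Lhx6 cells, in which genes of at least 50 CPM were changed by known folds. It does not cover members at lower levels or the comparison of Dach1 with Lypd1 cells. Gene positions are from GENCODE M21 and promoters from RefSeq (GRCm38.p6). Python 3.11.15, numpy 2.4.6, scipy 1.17.1, pandas 2.3.3, and matplotlib 3.10.9 were used.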

Additional observations from a re-analysis of the deposited data

Results flagged for a closer look

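Epha7, an ephrin-A receptor, had opposite signs in the comparison of Dach1 with Lypd1 cells in the P1 and P5 libraries. Its log2 ratio of CPM + 10 was 1.16 at P1, from 23 UMIs in Dach1 cells and 6 in Lypd1 cells, and -1.34 at P5, from 0 and 13 UMIs. The P5 level in Lypd1 cells (15.3 CPM) was under the level that 3 UMIs give in the 27 Dach1 cells (30.5 CPM), so that no fold is given there. The difference between the libraries was not tested.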

How the results depend on the processing

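The 68 called ratios of named genes were recomputed under 10 alternatives, which gave 680 values. Of these, 675 kept their direction, 1 was 0 (Slit2 between Dach1 and Lypd1 cells at P5, thinned), and 35 were under 2-fold. The 4 with the opposite direction were Nrp1 at E16.5 (-1.39) and Ephb1 at E16.5 (-0.35), each without the cells with excitatory UMIs and with the same cells left out together with a gate of 2 UMIs of Nos1. Both genes had 0 UMIs in the Nos1 cells that were left. The combined alternative was chosen after seeing the data.

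The numbers of members called were 12, 8, and 11 between Nos1 and Lhx6 cells in the libraries by age, 5, 6, and 18 in Lhx6 cells for P1 over E16.5, P5 over P1, and P5 over E16.5, 5 in Nos1 cells for P5 over P1, and 9 and 17 between Dach1 and Lypd1 cells at P1 and P5. With a pseudocount of 1 CPM, which lets genes of few UMIs pass, they were 20 and 21 between Nos1 and Lhx6 cells at E16.5 and P5, 17, 12, and 30 in Lhx6 cells, 14 in Nos1 cells, and 26 and 29 between Dach1 and Lypd1 cells. The share of all genes called was then higher too, with 7.14% higher and 8.53% lower at E16.5. With over 1000 genes and under 5% mitochondrial UMIs per cell, they were 13 between Nos1 and Lhx6 cells at P1, 10 in Lhx6 and 8 in Nos1 cells for P5 over P1, and 15 between Dach1 and Lypd1 cells at P1. With cells thinned to 2000 UMIs, they were 8 in Nos1 cells for P5 over P1 and 17 and 26 between Dach1 and Lypd1 cells at P1 and P5. With the mean of the CPM of single cells, the number in Nos1 cells was 8, and under the combined alternative that between Nos1 and Lhx6 cells at P1 was 13. Except for the pseudocount, the cause of these changes was not tested. The share of all genes is given only for the pseudocount at E16.5. The other counts therefore do not show whether members changed more than genes in general. Nos1 and Lhx6 cells were compared within each library, and no test over the 3 libraries, each of another stage, was made. Depth limits the comparison of Dach1 with Lypd1 cells at P5, where 1 UMI is 10.2 CPM in Dach1 cells.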

Other observations

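At E16.5, the 22 Nos1 cells with a UMI of Dach1 and none of Lypd1 had 407 CPM (314 to 520) of the netrin receptor Unc5c, 223 CPM (155 to 310) of Ntng1, 153 CPM (97.8 to 227) of Ntn1, 121 CPM (72.8 to 189) of Robo1, and 108 CPM (63.0 to 173) of Epha4. They had 0 UMIs of Nrp1 and of Ephb1, where 3 UMIs would be 19.1 CPM. Lhx6 cells of that library were under this floor as well, with 16.4 and 3.20 CPM, so the zeros do not show a difference from them. The excitatory markers of the 22 Dach1 cells summed to 6.36 CPM, against 741 CPM in all Nos1 cells of that library. At P1 and P5, Dach1 cells had 199 CPM (159 to 246) and 81.4 CPM (35.2 to 160) of Unc5c, and 507 CPM and 458 CPM of Epha4. The E16.5 Dach1 cells were thus highest in Unc5c of these genes and the postnatal ones in Epha4. Nothing in the design separates the stage of these cells from their library.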
